A study of Mus musculus with 7 samples.

Results

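Binding of PU.1 and MITF was followed at 8 genes that encode transcription factors known to work with PU.1 in myeloid cells: Runx1, Runx2, Runx3, Cbfb, Cebpa, Cebpb, Cebpd and Cebpe. A peak was assigned to a gene when its centre lay in the gene or within 100 kb of either end on the mm9 mouse genome. The 6 lists of PU.1 and MITF peaks held 735 such peaks out of 238652. PU.1 accounted for 237 of 76243 peaks in MPs, 220 of 71941 at 36 h and 227 of 77072 in OCs. For MITF the numbers were 20 of 5413, 12 of 3540 and 19 of 4443. None of the 349 peaks of the IgG control lay at any of the 8 genes. These genes held 0.31% of the PU.1 peaks in MPs, so an IgG list of this length says little about background there.

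The chromatin came from bone marrow myeloid cells of C57BLACK6 mice aged 4 to 6 weeks, and no genetic change was labelled for any group. Myeloid precursors (MPs) were grown for 3 days in 50 ng/ml CSF1, the growth factor of the macrophage lineage. RANKL, the cytokine that drives osteoclast formation, was added at 100 ng/ml for 36 h in the intermediate group and for 72 h in the osteoclast (OC) group, with CSF1 present in both. ChIP-Seq, which sequences the DNA fragments that an antibody against a protein brings down, was done with 5 µg of PU.1 or MITF antibody at each of the 3 times, and with pre-immune IgG in MPs only. Each of the 7 libraries stood alone, so no difference between times has a replicate check, and the intervals given cover counting error only. These cultures are mixed populations, and the lists hold no expression data with which to check the labelled cells. The highest PU.1 peak near Csf1r, the CSF1 receptor gene, scored 201.3, 221.7 and 186.5 in MPs, at 36 h and in OCs, and that near Itgam, which encodes CD11b, scored 226.9, 204.0 and 179.1.

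PU.1 is an ETS-family factor of the myeloid and B-cell lineages, and MITF is a basic helix-loop-helix factor that acts with it in osteoclasts. RUNX proteins bind DNA as partners of CBFβ, which raises their affinity and stability, and RUNX1 and PU.1 act together on myeloid genes. C/EBP proteins are basic leucine zipper factors that bind DNA as dimers and share many myeloid enhancers with PU.1, with C/EBPα and C/EBPε best known from granulocyte formation and C/EBPβ and C/EBPδ from macrophages and inflammation.

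The Peak Score is the number of tags (sequenced fragments) in a peak, scaled to a common library size. Each site is named below by its gene and its distance from the gene start, positive in the direction of transcription. The lowest peak in a list had 6 or 7 tags for PU.1 and 8 to 10 tags for MITF, and a site missing from a list was not called there, which does not show that it was unbound. Peaks of the PU.1 36 h list were 190 bp wide and those of the MITF 36 h list 150 to 1387 bp (median 169 bp). The other PU.1 and MITF lists used 150 bp, so 36 h scores were summed over wider windows. Scores are therefore set side by side for the 3 times, and fold changes are given relative to the median ratio of all matched sites.

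The highest sites are shown as mm9 plus-strand sequence, 5′ to 3′, because the results below turn on them. Capitals mark any match, on either strand, to GAGGAAGT (PU.1), TGTGGT or TGCGGT (RUNX), TTGCNNAA (C/EBP), CACGTG or CATGTG (MITF E-box) or TGANTCA (AP-1). The +2.9 kb site of Cebpd held the highest PU.1 score of the 8 genes, with GAGGAAGT near its left end, and +71.4 kb of Cebpb held the next highest with no match to any of these motifs.
Cebpd +2.9 kb, chr16:15890154-15890304: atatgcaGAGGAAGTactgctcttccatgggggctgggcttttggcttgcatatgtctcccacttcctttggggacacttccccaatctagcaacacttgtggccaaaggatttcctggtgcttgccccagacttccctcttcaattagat
Cebpb +71.4 kb, chr2:167585691-167585881: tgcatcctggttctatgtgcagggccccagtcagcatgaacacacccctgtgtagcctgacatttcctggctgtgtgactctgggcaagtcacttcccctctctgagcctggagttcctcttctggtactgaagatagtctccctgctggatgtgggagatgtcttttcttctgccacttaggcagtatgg
For Runx1 an intronic site and a site upstream of the gene had the same PU.1 score in MPs. The first held a RUNX match and the second the PU.1 match.
Runx1 +25 kb, chr16:92801231-92801381: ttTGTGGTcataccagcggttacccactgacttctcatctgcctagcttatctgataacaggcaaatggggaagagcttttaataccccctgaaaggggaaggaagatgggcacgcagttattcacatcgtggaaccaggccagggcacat
Runx1 -48.2 kb, chr16:92874418-92874568: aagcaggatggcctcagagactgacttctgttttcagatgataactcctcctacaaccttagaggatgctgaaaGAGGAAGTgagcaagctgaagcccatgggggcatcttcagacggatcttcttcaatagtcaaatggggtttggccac
The PU.1 sites with the highest score in any list at the remaining RUNX genes and at Cbfb follow. A RUNX match was present at the Runx2 site and none of the motifs at the Runx3 and Cbfb sites.
Runx2 +31.5 kb, chr17:44920202-44920352: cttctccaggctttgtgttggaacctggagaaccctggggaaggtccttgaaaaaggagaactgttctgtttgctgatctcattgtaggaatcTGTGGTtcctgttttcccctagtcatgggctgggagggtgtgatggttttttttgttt
Runx3 -50.6 kb, chr4:134625850-134626040: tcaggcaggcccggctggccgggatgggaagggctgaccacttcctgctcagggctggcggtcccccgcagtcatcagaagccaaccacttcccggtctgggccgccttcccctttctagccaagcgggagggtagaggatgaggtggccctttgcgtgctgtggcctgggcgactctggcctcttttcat
Cbfb +1.5 kb, chr8:107696025-107696175: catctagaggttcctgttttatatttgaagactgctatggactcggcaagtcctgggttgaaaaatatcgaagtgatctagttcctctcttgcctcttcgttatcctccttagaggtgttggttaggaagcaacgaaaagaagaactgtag
The last sites are the top MITF site of Cebpa, which is also a PU.1 site, and the top PU.1 site of Cebpe. The PU.1 match stood in the first and an E-box match in the second.
Cebpa +31.8 kb, chr7:35936016-35936166: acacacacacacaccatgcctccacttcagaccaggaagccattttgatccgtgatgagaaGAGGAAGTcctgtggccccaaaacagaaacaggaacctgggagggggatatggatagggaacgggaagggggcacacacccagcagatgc
Cebpe -44.4 kb, chr14:55375380-55375530: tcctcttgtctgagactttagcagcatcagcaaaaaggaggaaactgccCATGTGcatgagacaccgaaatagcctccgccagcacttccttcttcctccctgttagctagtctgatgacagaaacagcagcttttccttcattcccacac

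PU.1 peaks were dense at most of the 8 genes. Across 22202 protein-coding genes treated in the same way, the median was 4.92 PU.1 peaks per 100 kb of gene and flanks in MPs and 4.97 in OCs (quartiles 1.89 and 7.78 in MPs). Of the 8 genes, 7 lay above that median in each PU.1 list. Cebpb had 15.9 and 16.4 peaks per 100 kb in MPs and OCs, higher than 99.4% and 99.5% of protein-coding genes. Runx1 had 14.4 and 12.2, higher than 98.6% and 95%. Runx3 (13.2 and 12.8) and Cebpa (11.8 and 10.9) stood above 97.5% and 94.9% of genes in MPs. Runx2, Cbfb and Cebpe were between the 73.1 and 85.6 percentiles in MPs, and Cebpd was at the 42.0 percentile with 3.98 per 100 kb. Windows of neighbouring genes overlap, so these percentiles are a description. Flanks also reach other genes: that of Cbfb takes in 13 other protein-coding genes, that of Cebpe 8 and that of Cebpa 4, among them Cebpg. The median Peak Score at the 8 genes was 25.6, 25.1 and 27.9 in MPs, at 36 h and in OCs, and over the whole lists 23.9, 23.7 and 23.5.

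**Figure D1:**
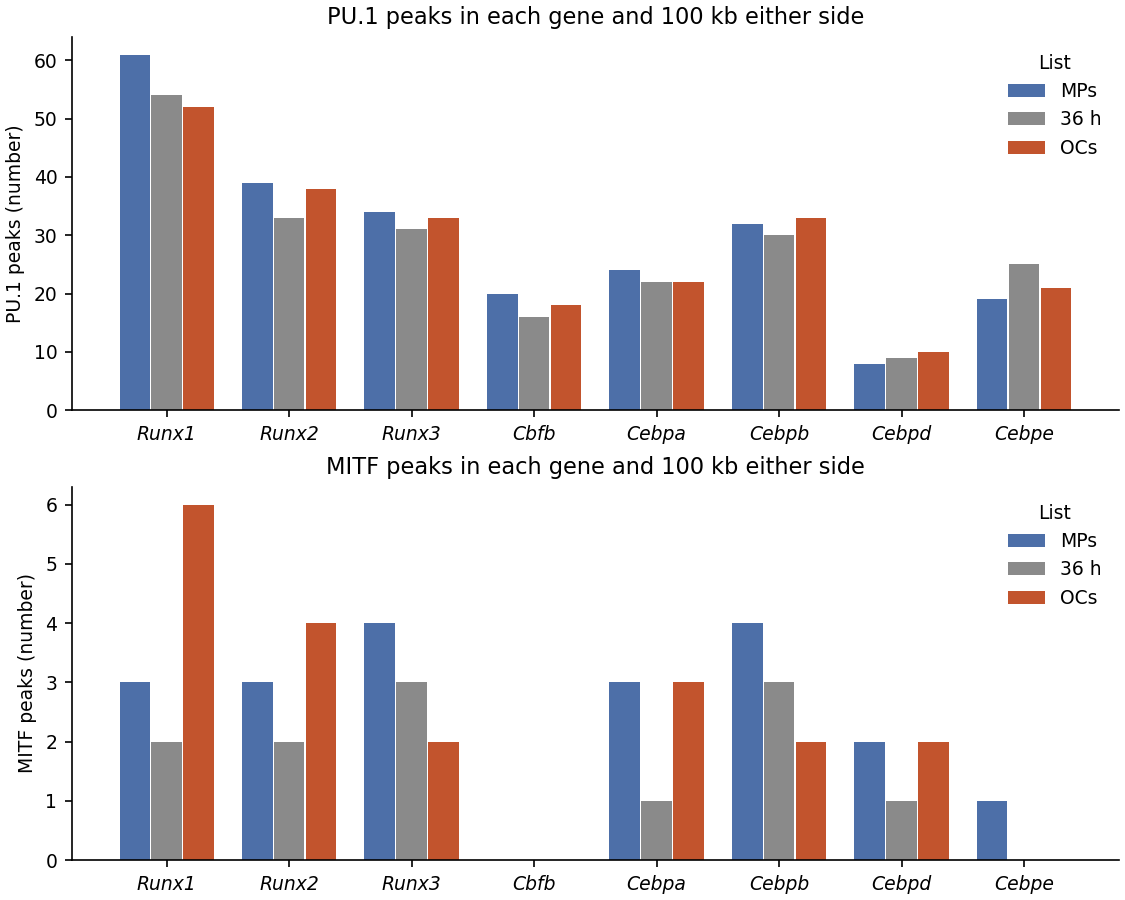
Number of PU.1 peaks (top) and MITF peaks (bottom) in each gene and 100 kb either side, with 1 bar for each list. Runx1 had the most PU.1 peaks in every list (61, 54 and 52), and Cbfb had no MITF peak in any list.

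PU.1 peak numbers were similar over time at most genes. Runx1, a regulator of blood stem cell emergence, had 61 peaks in MPs, 54 at 36 h and 52 in OCs. Cebpe, a factor of late granulocyte maturation, had 19, 25 and 21. Runx2, known for osteoblast formation, had 39, 33 and 38 peaks, and Runx3 had 34, 31 and 33. Cbfb, the shared RUNX partner, had 20, 16 and 18. Of the C/EBP genes, Cebpa had 24, 22 and 22 peaks, Cebpb 32, 30 and 33, and Cebpd 8, 9 and 10. The higher number at 36 h for Cebpe stood beside wider 36 h peaks, whose part in it was not tested. By the same measure over the 3 lists, the protein-coding genes closest to Runx1 among the 11682 with at least 10 PU.1 peaks in each list were Zmiz1 (59, 54 and 54 peaks), Trio (57, 54 and 53) and Cux1 (56, 55 and 53). Their log2 Euclidean distances to Runx1 were 0.073, 0.10 and 0.13.

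The same PU.1 sites were largely found before and after RANKL. Of the 227 OC peaks at the 8 genes, 187 overlapped an MP peak by at least 1 bp (82.4%, 95% Wilson interval 76.9 to 86.8). Among all OC peaks this share was 78.0%. In the other direction 78.9% of the MP peaks overlapped an OC peak (background 78.8%). At 36 h, 81.8% of peaks overlapped an MP peak (background 78.3%) and 75.9% of MP peaks overlapped a 36 h peak (background 73.9%). These shares were close to those of the whole lists. Among OC peaks, Runx1 and Cbfb stood at the ends of the range for overlap with an MP peak. The counts were 49 of 52 at Runx1 (94.2%, 84.4 to 98.0) and 11 of 18 at Cbfb (61.1%, 38.6 to 79.7). The Cbfb OC peaks were low, with a median score of 13.2 against 23.5 for the whole list. Only 3 of these 18 had Cbfb as the nearest RefSeq gene. The part of low scores in the Cbfb share was not tested. In MPs, 49 of 61 Runx1 peaks overlapped an OC peak (80.3%, background 78.8%), 11 of 20 at Cbfb and 8 of 8 at Cebpd.

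Merging overlapping peaks gave 301 PU.1 sites, of which 165 were in all 3 lists (54.8%, against 50.5% of 102370 sites in the genome). A further 35 were in MPs only (11.6% against 11.1%), 24 at 36 h only and 24 in OCs only (8.0% against 9.0% and 10.3%). Of 70 Runx1 sites, 9 were in MPs only (12.9%), with scores of 10.2 to 22.2, and 1 in OCs only (1.43%), with a score of 16.2. Of 29 Cbfb sites, 7 were in MPs only (24.1%), with scores of 10.2 to 32.4. A further 5 at Cbfb were in OCs only (17.2%), with scores of 10.3 to 13.2. At Cebpe 7 of 31 sites were in the 36 h list only (22.6%), with scores of 10.3 to 19.2. Cebpd, with 12 sites, had none in MPs only.

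**Figure D2:**
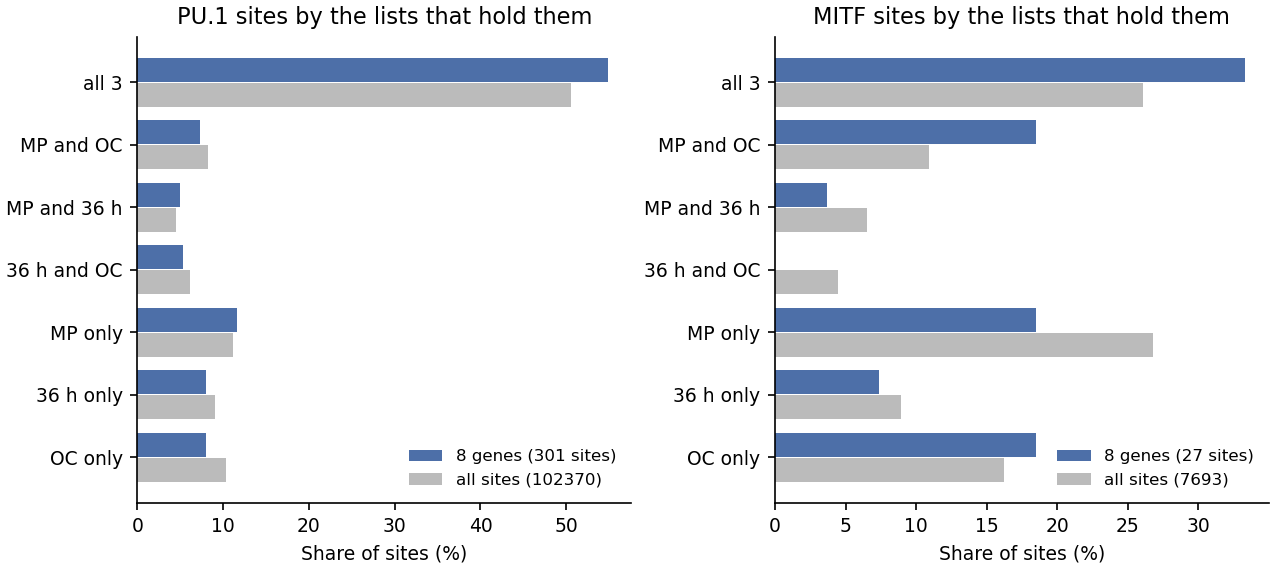
Share of PU.1 sites (left) and MITF sites (right), in %, by the lists in which they were found, for the 8 genes and for the genome. At the 8 genes 54.8% of the PU.1 sites and 33.3% of the MITF sites were in all 3 lists.

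The highest site gained between MPs and OCs was at Cebpb +65.3 kb. It was not called in MPs, and scored 38.4 (26 tags) at 36 h and 41.1 (28 tags) in OCs. Beside it, without overlap, Cebpb +65.1 kb was called in MPs only with a score of 17.1 (10 tags). Runx3 +119.8 kb, in an intron of Clic4, scored 23.7 and 35.2 at 36 h and in OCs, and Cebpa -26.7 kb scored 25.1 and 25. All 3 were first called at 36 h. The highest lost site lay at Runx2 +92.6 kb, in an intron of Runx2, and was called in MPs only with a score of 39.2 (23 tags). Cbfb +60.9 kb (32.4) and Runx3 +109.8 kb (27.3) were also called in MPs only. Each of these 3 lost sites had a neighbour, without overlap, that was called in all 3 lists. The neighbours were Runx2 +93.0 kb, Cbfb +61.4 kb and Runx3 +109.4 kb. PU.1 was therefore still called close to each lost site. Cebpa -12.6 kb and Runx2 +43.8 kb, each with a score of 17.6 (12 tags), were the highest sites found in OCs only.

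**Figure D3:**
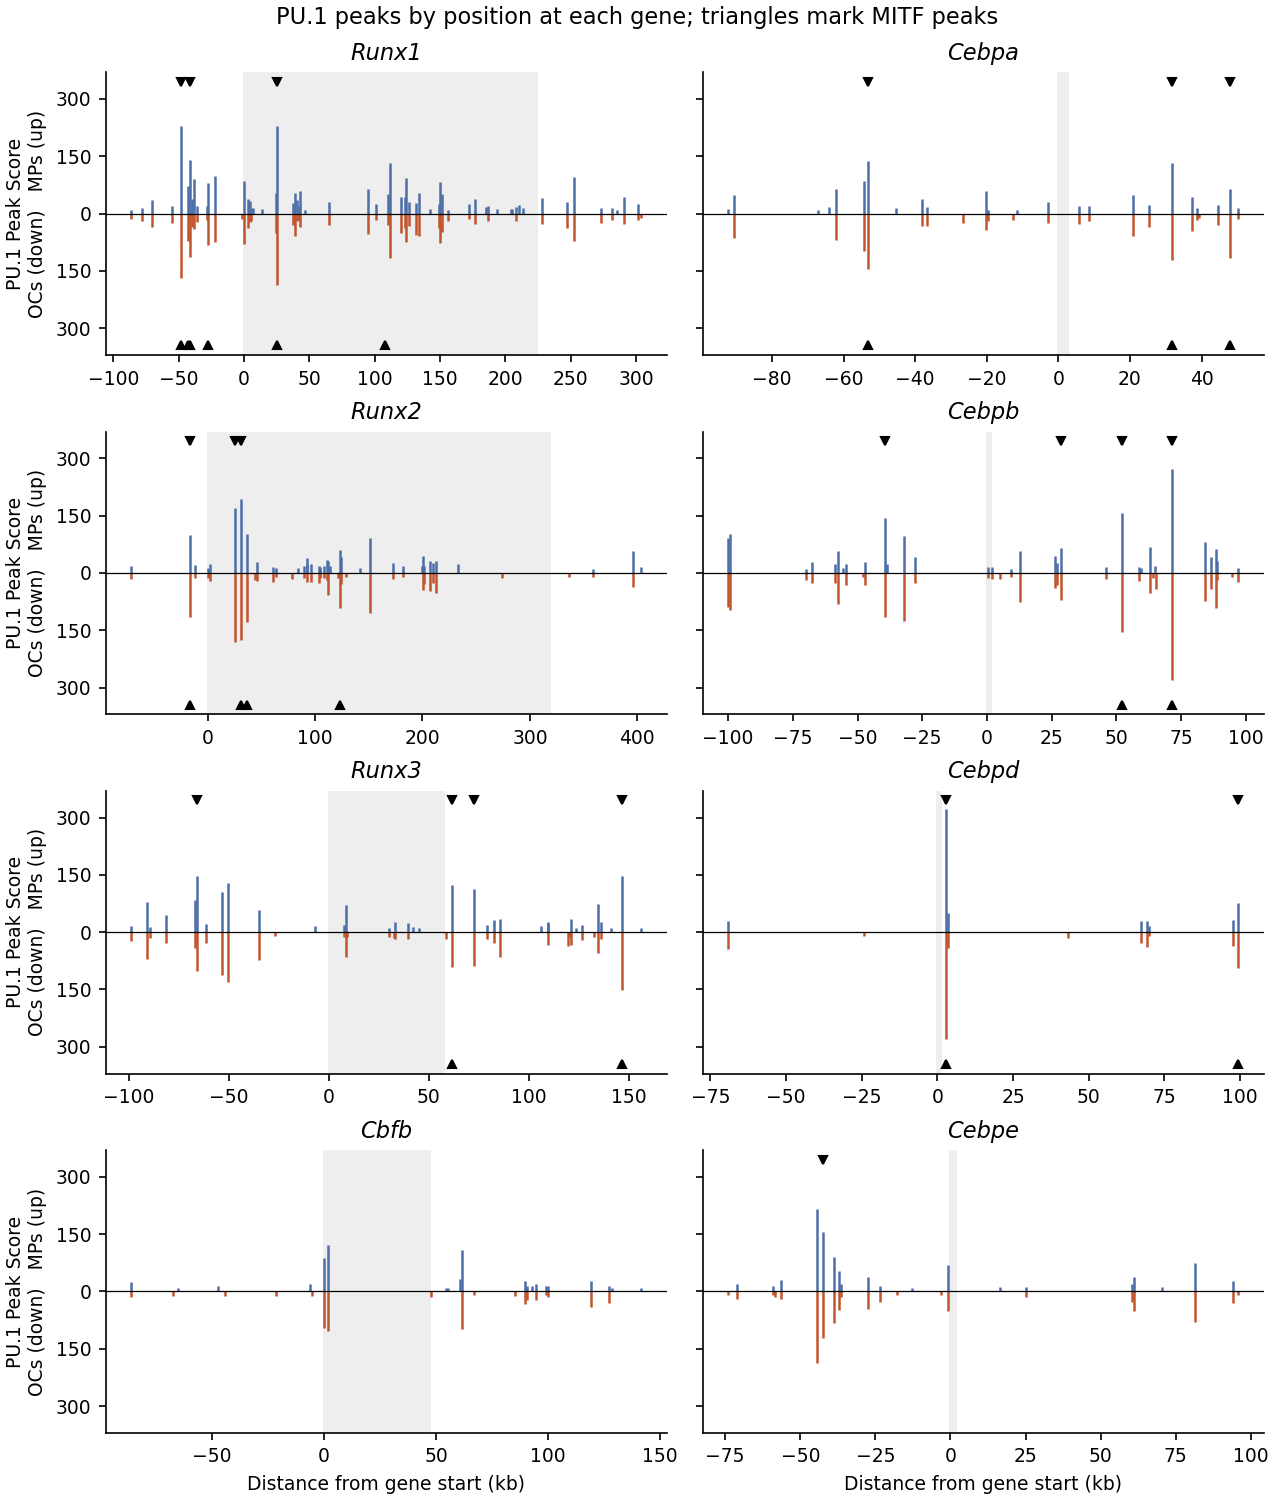
PU.1 Peak Score of each site in MPs (upward lines) and OCs (downward lines) against the distance from the gene start in kb. Grey marks the gene, triangles mark MITF peaks in MPs (top) and OCs (bottom), and the tallest line is Cebpd +2.9 kb (322.4 in MPs and 280.5 in OCs).

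Promoters of the RUNX genes differed in PU.1 peaks. RUNX genes are transcribed from a distal and a proximal promoter. At the distal start of Runx1 a PU.1 peak scored 85.3, 62.1 and 80.8 in MPs, at 36 h and in OCs. Within 1 kb of the proximal starts, 129.3 kb downstream, a peak was called at 36 h only with a score of 16.3 (11 tags). Just outside this limit, Runx1 +131.9 kb, 1476 bp from a proximal start, scored 29.0, 31.0 and 55.8 at the 3 times. At Runx2 the distal start had a peak of 13.6 in MPs and 13.2 in OCs, and the proximal start a peak of 14.7 in OCs only. Runx3 had no peak within 1 kb of its distal start, and near its proximal starts had a site of 25.6, 14.8 and 19.1 and a second of 14.8 and 16.2 at 36 h and in OCs.

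Cbfb, which has a single annotated start, had a PU.1 peak 0.2 kb upstream of it with scores of 88.7, 94.6 and 96.9, and its highest peak in the intron at +1.5 kb (121.1, 96.1 and 102.8). Of the C/EBP genes, Cebpe had a peak at -0.9 kb (68.2, 60.6 and 49.9) and a second at its start at 36 h only (19.2, shared with Cebpe -32.8 kb as the highest score among sites of that list alone). Cebpb had a low peak in its coding exon at +0.3 kb (15.4, 11.8 and 13.2). Cebpa and Cebpd had no PU.1 peak within 1 kb of the start in any list, and no MITF peak lay within 1 kb of a start of any of the 8 genes.

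The highest PU.1 site of each gene lay more than 1 kb from any of its starts and was present at all 3 times. The distance was short at Cbfb (+1.5 kb) and at Cebpd (+2.9 kb). Cebpd +2.9 kb, downstream of this single-exon gene and in an intron annotated to 2310008H04Rik, scored 322.4 in MPs, 263.1 at 36 h and 280.5 in OCs. It ranked 65 of 76243 PU.1 peaks in MPs and shared rank 59 of 77072 in OCs with Cebpb +71.4 kb. The intergenic site at Cebpb scored 272.9, 288.2 and 280.5. Cebpe -44.4 kb, in an intron of Slc7a8, scored 214.9, 170.0 and 186.5. Cebpa had its highest site at -53.1 kb (138.2, 118.3 and 143.9), nearest to the related gene Cebpg.

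Among the RUNX genes, Runx1 +25 kb in an intron scored 228.6, 170.0 and 186.5, and -48.2 kb scored 228.6, 181.8 and 167.4. The Runx1 ChIP-qPCR primers of the study, ctgacttctcatctgcctagctt and tcccctttcagggggtatta, matched a single segment of 74 bp at chr16:92801257-92801330. That segment overlapped the peak at +25 kb in all 6 lists. Runx2 +31.5 kb, in an intron that Runx2 shares with Supt3h, scored 192.8, 168.5 and 176.2. Runx2 +25.6 kb was higher in OCs (180.6). Runx3 -50.6 kb scored 129.6, 171.5 and 130.7, so it was the highest Runx3 site only at 36 h, where peaks were wider. Runx3 +146.5 kb scored 146.7 in MPs and 151.2 in OCs, and Runx3 -66.1 kb 146.7 in MPs.

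Levels of PU.1 at matched sites were compared by the tags of the 2 peaks, with an exact binomial test against the median ratio of all matched sites and Benjamini-Hochberg adjustment over all of them. This test compares 2 libraries and not the conditions. Between MPs and OCs, 3 of 187 matched sites at the 8 genes changed at least 2-fold (1.60%), against 5.37% of 60100 matched sites in the genome, and the median log2 fold change was 0.042. None of the 187 passed the adjusted exact test as well (background 0.130%), the smallest adjusted p was 0.158, and 9 had an unadjusted exact p under 0.05 (4.81%, against 7.09% in the genome).

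Runx1 -38.3 kb was lowest by fold, with a Peak Score of 90.4 in MPs (53 tags), 73.9 at 36 h (50 tags) and 41.1 in OCs (28 tags). The log2 fold change was -1.11 (95% interval -1.83 to -0.43, exact binomial p = 0.0010, adjusted p = 0.158). Runx3 -66.8 kb had scores of 83.6, 75.4 and 41.1 (log2 fold change -1.0, interval -1.72 to -0.30, adjusted p from the exact test 0.298). The remaining 2-fold site, Cebpa -19.6 kb, had 6 and 14 tags in MPs and OCs (log2 fold change 1.03, interval -0.44 to 2.70). The rest of the 5 largest by fold in each direction were Cbfb -86.1 kb and Runx2 +111.2 kb (both -0.93) and Runx1 +40.3 kb (-0.78) on the lower side, and Runx1 +131.9 kb (0.97), Cbfb +127.0 kb (0.96), Runx3 +85.8 kb and Cebpa -36.6 kb (both 0.94) on the higher side, none of them past the adjusted exact test.

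**Figure D4:**
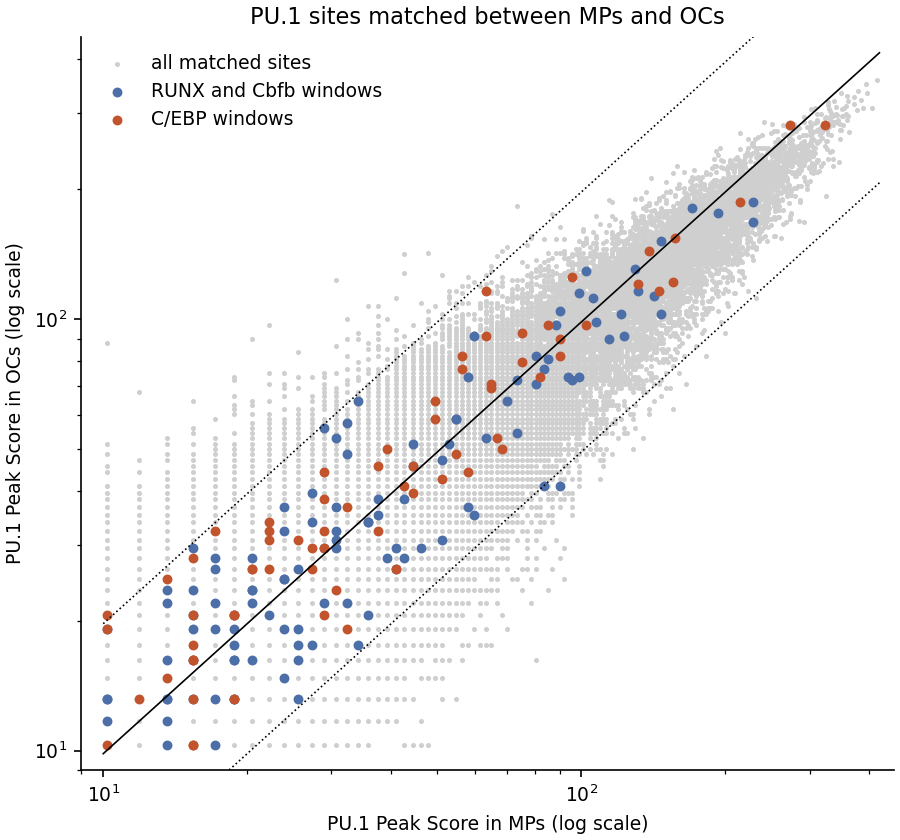
PU.1 Peak Score in OCs against that in MPs, both on log scales, at sites matched between the lists, for all sites (grey), the RUNX and Cbfb windows (blue) and the C/EBP windows (orange). The solid line is the median ratio and the dotted lines a 2-fold change from it, which 3 of 187 sites at the 8 genes passed.

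By gene, Cebpa had the highest median log2 fold change between MPs and OCs, at 0.21. The medians of the other genes ran from -0.06 (Runx3) to 0.15 (Cbfb). Of the 19 matched Cebpa sites, 15 were above the median ratio. All of them come from the same pair of libraries, so their number does not replicate a direction. Only 10 of the 22 OC peaks at Cebpa had Cebpa as the nearest RefSeq gene. Among the 15 was Cebpa +47.9 kb, with Slc7a10 as its nearest RefSeq gene. The Peak Scores of this site were 63.1 in MPs (37 tags), 104.9 at 36 h (71 tags) and 116.0 in OCs (79 tags). Its log2 fold change between MPs and OCs was 0.90 (interval 0.32 to 1.51, adjusted p from the exact test 0.200). Cebpa +37.3 kb, named here because a myeloid enhancer is known at about this distance from the gene, scored 44.4, 39.9 and 45.5 and had no MITF peak. Runx1 was near an even split, with 28 of 49 matched sites below the median ratio and a median log2 fold change of -0.06. Runx3 was alike, with 15 of 26 below and a median of -0.06.

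Steps through 36 h gave few changes in PU.1. From MPs to 36 h, 6 of 180 sites changed at least 2-fold (3.33%, background 7.42%), and from 36 h to OCs 8 of 181 (4.42%, background 4.62%). None passed the adjusted exact test in either step (backgrounds 0.932% and 0.0655%), with smallest adjusted p of 0.138 and 0.380, and 11 and 14 sites had an unadjusted exact p under 0.05 (6.11% and 7.73% of the matched sites, against 10.04% and 5.80% in the genome). Cbfb +119.0 kb had scores of 27.3, 59.1 and 39.6, the largest fold change towards 36 h. Runx2 +104.7 kb went from 15.4 to 32.5 and then 13.2.

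MITF bound almost wholly within PU.1 peaks. In MPs all 20 MITF peaks at the 8 genes overlapped a PU.1 peak (background 97.9%), at 36 h all 12 (background 93.8%), and in OCs 18 of 19 (94.7%, background 93.3%). The exception was Runx1 +108.2 kb, with a MITF score of 9.1 (8 tags), the lowest value of the OC list. In the other direction 20 of 237 PU.1 peaks in MPs carried a MITF peak (8.44%, Wilson interval 5.53 to 12.7, background 6.95%), 12 of 220 at 36 h (5.45%, background 4.62%) and 18 of 227 in OCs (7.93%, interval 5.07 to 12.2, background 5.38%). The background lay inside each of these intervals.

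PU.1 peaks that carried MITF were among the highest. In OCs the median PU.1 score at the 8 genes was 124.8 for the 18 peaks with MITF (lowest 72.0) and 26.4 for the 209 without. In MPs the medians were 145.8 and 23.9, and at 36 h 167.8 and 23.7. The same held over the whole lists, at 136.6 and 22 in OCs. Some high PU.1 sites had no MITF peak: Cebpe -44.4 kb reached a PU.1 score of 214.9 with no MITF peak in any list, and none of the PU.1 peaks of Cbfb had one.

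MITF peak numbers over MPs, 36 h and OCs were 3, 2 and 6 at Runx1, 3, 2 and 4 at Runx2, and 4, 3 and 2 at Runx3. The C/EBP genes had 3, 1 and 3 peaks at Cebpa, 4, 3 and 2 at Cebpb, 2, 1 and 2 at Cebpd, and 1, 0 and 0 at Cebpe. Of the protein-coding genes, 46.3%, 36.2% and 42.2% had any MITF peak in the 3 lists. The 27 MITF sites at the 8 genes included 9 in all 3 lists (33.3%, against 26.1% of 7693 sites in the genome), 5 in MPs and OCs (18.5% against 10.9%) and 1 in MPs and at 36 h (3.70% against 6.55%). A further 5 were in MPs only (18.5% against 26.8%), 2 at 36 h only (7.41% against 8.93%) and 5 in OCs only (18.5% against 16.3%). Of the 19 OC peaks 14 overlapped an MP peak (73.7%, background 64.0%), and of the 20 MP peaks 14 overlapped an OC peak (70.0%, background 52.5%), both with intervals that hold the background.

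The 5 sites of MITF in OCs only were at Runx1 and Runx2, and all were near the calling limit. Runx1 -27.7 kb, Runx1 -42.7 kb, Runx2 +37.1 kb and Runx2 +123.1 kb each scored 10.3 (9 tags), and Runx1 +108.2 kb scored 9.1. Except at +108.2 kb, PU.1 was present at these sites at all 3 times, with scores of 102.3, 128.6 and 129.2 at Runx2 +37.1 kb. The highest MITF sites called in MPs and not in OCs were Runx3 -66.1 kb (15.6 in MPs), Runx2 +25.7 kb (12.5 in MPs and 9.7 at 36 h) and Cebpb -39.4 kb (11.4 in MPs). Runx3 -50.6 kb was called at 36 h only, with 25.3 (26 tags in 169 bp).

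The 9 MITF sites present at all 3 times included those with the highest scores. Cebpd +2.8 kb, within the PU.1 site described above, scored 22.9 in MPs (22 tags), 121.7 at 36 h (125 tags) and 43.4 in OCs (38 tags). Cebpb +71.4 kb scored 38.4, 104.1 and 34.3, and Runx1 +25 kb 20.8, 71.1 and 18.3. At these 3 sites the 36 h peaks were 260, 206 and 225 bp wide. Cebpa +31.8 kb scored 17.7, 15.6 and 29.7 over peaks that were 150 bp wide at every time. Runx2 +31.5 kb scored 23.9, 38.9 and 28.5, and Runx3 +61.4 kb 16.6, 32.1 and 12.6.

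**Figure D5:**
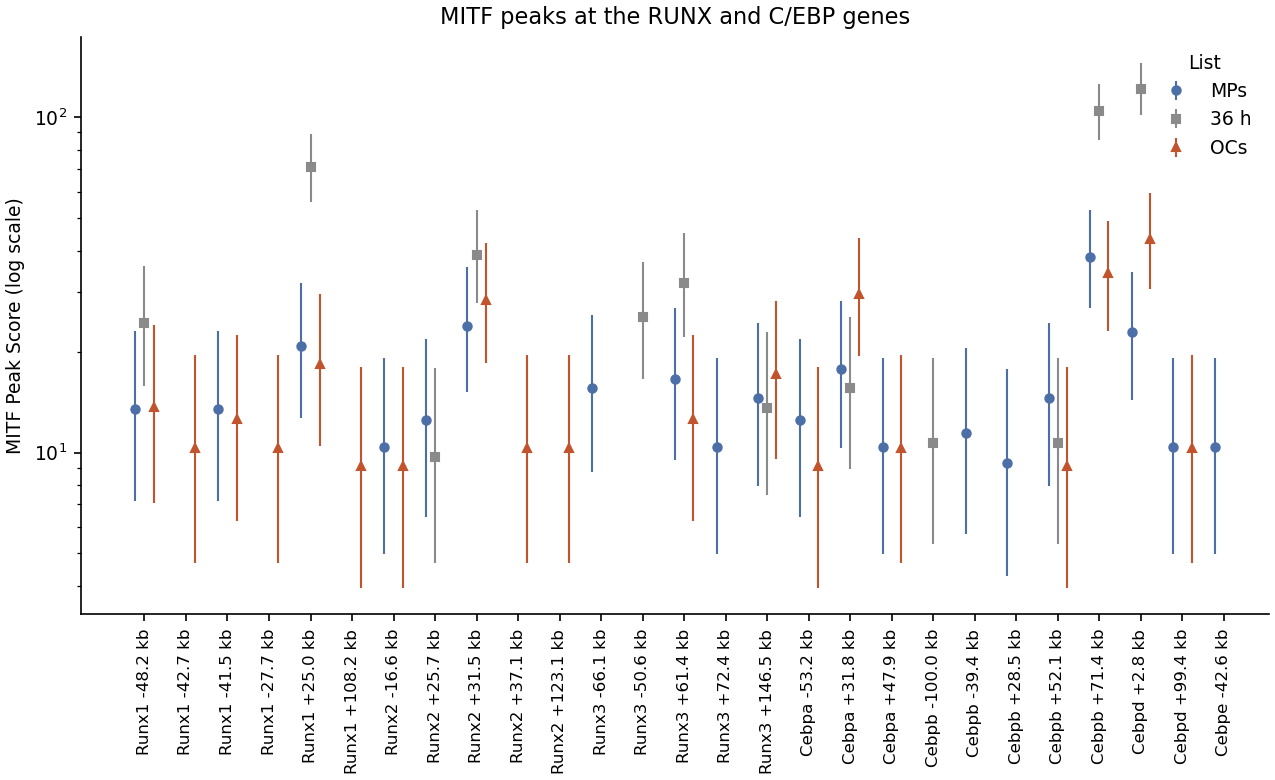
MITF Peak Score (log scale) of the 27 sites at the 8 genes in MPs, at 36 h and in OCs, with 95% Poisson intervals of the tags as bars. Symbols are missing where no peak was called, and the 36 h list reached 121.7 at Cebpd +2.8 kb over a wider peak.

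Between MPs and OCs, whose MITF peaks had equal widths, 1 of 14 matched sites changed at least 2-fold (7.14%, background 3.87%). This was Cebpd +2.8 kb, from 22 to 38 tags, with a log2 fold change of 1.03 (interval 0.24 to 1.86, exact binomial p = 0.0096, adjusted p = 1.0). With library size as the scale, the log2 fold change was 0.92. No site of the 2844 in the genome passed the adjusted exact test (background 0%), and 76 had an unadjusted exact p under 0.05. The next on the higher side were Cebpa +31.8 kb (0.85, interval -0.08 to 1.83), Runx2 +31.5 kb (0.36), Runx3 +146.5 kb (0.34) and Runx1 -48.2 kb (0.13), and the lowest was Cebpb +52.1 kb (-0.57, interval -2.03 to 0.79). Above it came Cebpa -53.2 kb (-0.34), Runx3 +61.4 kb (-0.30), and Runx1 +25 kb and Runx2 -16.6 kb (both -0.08).

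Larger differences involved the 36 h list. From MPs to 36 h, 4 of 10 matched sites changed at least 2-fold (40.0%, background 27.4%), and 2 of them also passed the adjusted exact test (background 13.9%). At Cebpd +2.8 kb the log2 fold change was 1.71 (interval 1.05 to 2.43, adjusted exact p = 7.39e-07), and at Runx1 +25 kb it was 1.07 (0.34 to 1.86, adjusted exact p = 0.0234). With tags divided by peak width these became 1.18 and 0.75, the second below 2-fold, and scaled by library size 2.41 and 1.77. Peaks at these 2 sites were 150 bp wide in MPs and 260 and 225 bp at 36 h. The exact test and its intervals made no allowance for the width of single peaks, here or from 36 h to OCs. Runx2 +25.7 kb and Cebpb +52.1 kb were the 2 that were lower (-1.06 and -1.14), neither past the test, and scaled by library size they were -0.36 and -0.44. Cebpb +71.4 kb passed the adjusted exact test below 2-fold (log2 fold change 0.74, interval 0.18 to 1.32, adjusted exact p = 0.04855). Per peak width its log2 fold change was 0.54.

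From 36 h to OCs, 3 of 9 matched sites changed at least 2-fold (33.3%, background 24.4%), and 2 passed the adjusted exact test (background 9.20%). Runx1 +25 kb had a log2 fold change of -1.11 (interval -1.99 to -0.31, adjusted exact p = 0.0420), or -0.79 per peak width and -1.96 when scaled by library size. Cebpa +31.8 kb had one of 1.78 (0.83 to 2.78, adjusted exact p = 0.0036), or 1.51 per peak width and 0.93 when scaled by library size. The median ratio of all matched MITF sites was 1.74 from MPs to 36 h and 0.473 from 36 h to OCs, so a site with equal scores counts as lower at 36 h.

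Motif matches in the 150 bp around the centres of the PU.1 OC peaks were counted on both strands. TGTGGT or TGCGGT, the RUNX motif, was in 47 of 227 peaks at the 8 genes (20.7%, Wilson interval 15.9 to 26.4), against 14.7% of 77002 PU.1 OC peaks, which lay below the interval. It was in 20.3% against 15.2% in MPs (interval 15.6 to 25.8) and in 18.6% against 14.9% at 36 h, where the interval (14.1 to 24.3) held the background, and within 100 bp in OCs in 14.1% (10.2 to 19.2) against 10.1%. A RUNX match was in 10 of 52 OC peaks at Runx1 and 8 of 38 at Runx2. It was in 9 of 33 at Runx3 and 4 of 18 at Cbfb. The C/EBP genes had 5 of 22 at Cebpa, 5 of 33 at Cebpb, 2 of 10 at Cebpd and 4 of 21 at Cebpe. No allowance was made for the number of motifs counted. The peaks of the 3 lists are mostly the same sites, so they are not separate evidence.

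The other motifs were nearer to their backgrounds in OCs. GAGGAAGT was in 20.3% of peaks (background 22.3%), the C/EBP motif TTGCNNAA in 6.17% (background 8.30%), CACGTG in 3.52% (background 2.50%), CATGTG in 10.6% (background 10.9%) and the AP-1 motif TGANTCA in 8.81% (background 8.51%). Each background lay inside the Wilson interval of the 8 genes.

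Other genes of these pathways were chosen by role and treated in the same way. All 3 other C/EBP genes (Cebpg, Cebpz and Ddit3) had PU.1 peaks at each time, with medians of 20, 18 and 17 peaks over MPs, 36 h and OCs. The window of Cebpg overlaps that of Cebpa. Of 8 RUNX co-regulators, all had PU.1 peaks in MPs and OCs and 7 did at 36 h, with medians of 15.5, 16.0 and 16.5. Runx1t1, which encodes a corepressor found in a leukaemic fusion with RUNX1, had 2, 0 and 2, and Tle3, a Groucho-family corepressor, had 24, 19 and 26. MITF peaks were at 4, 2 and 5 of the 8, beside the shares of all protein-coding genes given above (46.3%, 36.2% and 42.2%).

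Among 10 genes that RUNX1 or C/EBP factors are known to control with PU.1, each had PU.1 peaks in every list, with medians of 18.5, 18 and 22. Csf1r had 21, 24 and 31 PU.1 peaks, and Il6, a cytokine gene, 10, 8 and 9. MITF peaks were at 7, 6 and 7 of the 10, beside the same shares of all protein-coding genes. Having a PU.1 peak is common: 88.0%, 87.6% and 88.0% of all protein-coding genes had one in MPs, at 36 h and in OCs, so these counts do not set the lists apart.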

How the data were processed

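ChIP-Seq of PU.1 and MITF in MPs, at 36 h of RANKL and in OCs, and of IgG in MPs, gave 7 libraries, 1 per condition, grouped by their labels. The authors processed reads with CASAVA 1.8 and Bowtie2, mapped them to mm9, called peaks per library with HOMER and deposited a Peak Score for each peak (tags scaled to a common library size). Calling settings and the other versions are not given in the sources used here. No reads were used, so no peak was called again.

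Within a list, every score was a multiple of the worth of 1 tag, which gave the tags of each peak. Peaks held 1866941 to 2095716 tags per PU.1 library and 57514 to 122872 per MITF library. Total depth is not in the lists. For scaling by library size, the size was inferred as 10000000 divided by the worth of 1 tag. That assumes the default scale of HOMER for every list and was not measured. Genes came from GENCODE M1 (mm9); its Runx2 has 2 records, which were joined, and it types Cebpd as a pseudogene. Peaks sharing 1 bp or more were matched, in mutual best pairs for fold changes, which were called at 2-fold, or at 2-fold with an adjusted p under 0.05 (exact binomial test, two-sided, Benjamini-Hochberg over all matched sites). Intervals were 95% Wilson for shares, Clopper-Pearson for fold changes and Poisson for scores.

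Named sites were the highest PU.1 and MITF peak of each gene, the highest of each single list, the 3 highest gained and lost, the 5 largest changes each way, those within 1 kb of a start and the Runx1 ChIP-qPCR segment. The 8 genes, the other lists of genes and these rules were chosen with earlier results of these data known. Tags per peak width, and Cebpa +37.3 kb and +47.9 kb, were added after the values had been seen. The scripts were tested on simulated data. Python 3.11.15, numpy 2.4.6, pandas 2.3.3, scipy 1.17.1, matplotlib 3.10.9, pysam 0.24.0 and samtools 1.23.1 were used.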

Additional observations from a re-analysis of the deposited data

How the results depend on the processing

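No paired analysis was possible because each condition has 1 library. For the same reason no replicate could be left out. Of 106 alternative values, 69 stayed within the limits set for them (1.5 times the reported number for counts, the 95% Wilson interval for shares) and 37 moved. Matching by centres within 100 bp and a reciprocal overlap of 50% moved none of the values they were applied to. Removing peaks that overlap an IgG peak was no test of these values, because no IgG peak lay at the genes studied. Its 18 values are counted among the 69 that stayed. Tags per peak width were no test of the PU.1 changes either. Each PU.1 list had a single peak width at these sites, which the scaling by the median ratio removes. The PU.1 values so obtained (6 from MPs to 36 h and 8 from 36 h to OCs) are also counted among the 69.

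Narrower windows lowered the counts by construction. With 25 kb flanks PU.1 had 116, 110 and 109 peaks in MPs, at 36 h and in OCs, and MITF 7, 5 and 8. With 50 kb flanks MITF had 7 at 36 h, and 2-fold changes in PU.1 numbered 3 from MPs to 36 h and 4 from 36 h to OCs. With the nearest RefSeq transcript PU.1 had 141 peaks at 36 h and 151 in OCs, and MITF 11 in MPs and 7 at 36 h.

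Keeping scores of at least 2 times the lowest left 147, 135 and 148 PU.1 peaks and 4, 7 and 5 MITF peaks. Shared PU.1 peaks became 87.2% (OCs in MPs), 88.9% (36 h in MPs) and 84.5% (OCs in 36 h), and all MITF OC peaks (100%) overlapped PU.1. The 2-fold changes became 2 (PU.1, MPs to 36 h), 0 (PU.1, 36 h to OCs), 1 (MITF, MPs to 36 h), 0 (MITF, 36 h to OCs) and 0 (MITF, MPs to OCs).

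Asking also for an adjusted exact p under 0.05 left 0, 0 and 0 PU.1 changes (unadjusted p under 0.05 at 11, 14 and 9 sites), and for MITF 2 from MPs to 36 h and 0 from MPs to OCs (unadjusted at 1 site). Scaling by library size gave 0 MITF changes from MPs to OCs. Tags per peak width gave 1 from MPs to 36 h and 1 from 36 h to OCs. The RUNX motif was in 14.1% of peaks within 100 bp. The cause of the other moves was not tested. Peaks of 6 to 10 tags give wide intervals (-0.44 to 2.70 at Cebpa -19.6 kb), and with 1 library per time a change of condition and a difference between libraries cannot be told apart.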
